A study of Mus musculus with 6 samples.

Results

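Expression of 10 genes listed as markers of luminal progenitors (LPs) of the mouse mammary gland was measured in Runx1-null and Runx1-WT luminal mammary epithelial cells (MECs). The genes were Kit, Kitl, Cd14, Itga2, Itgb3, Aldh1a3, Cyp24a1, Tspan8, Wfdc18 and Mfge8. All probe sets that the array annotation assigns to exactly 1 of these symbols were taken, which gave 22 probe sets of the 34958 with 1 gene symbol, and 10 genes of 18194. The rule itself uses no measured value, but the 10 genes were proposed with earlier results of these data known.

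YFP-marked luminal MECs (Lin-CD24+CD29lo) were sorted from adult virgin females, and RNA of each of 6 mice was amplified and hybridized to 1 Affymetrix Mouse Genome 430 2.0 array. The Runx1-null group was 3 MMTV-Cre;Runx1L/L;R26Y mice, in which both Runx1 alleles carry a loxP-flanked part that Cre can remove. The paper proposes that many YFP-marked mature luminal cells of such mice kept at least 1 intact allele. The Runx1-WT group was 3 MMTV-Cre;Runx1+/+;R26Y mice, so the controls carried the Cre transgene and the YFP reporter too. All were of a mixed B6/129/FVB background, and the labels give no age in weeks and no litter. The MMTV promoter drives Cre in only a subset of MECs, YFP reports recombination of the R26Y allele rather than of Runx1, and the sorted population was the whole luminal gate, with LPs and mature luminal cells (MLs) together.

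LPs are the proliferative cells of the luminal lineage and give rise to alveolar cells, which make milk in pregnancy. They are usually recognised by the receptor tyrosine kinase c-KIT, the lipopolysaccharide co-receptor CD14 and the integrins CD49b and CD61 on the cell surface, and by high aldehyde dehydrogenase activity. MLs carry the estrogen receptor and are low in c-KIT and CD14, so the level of these genes in the whole luminal gate depends on the mix of both cell types as well as on the RNA of each cell. In bulk RNA of this kind, fewer cells of a type and less RNA per cell cannot be told apart.

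None of the 10 genes passed the limma test of Runx1-null against Runx1-WT luminal MECs across all genes. The adjusted p was 1.0 for each of them, and the smallest unadjusted p was 0.0907, for Aldh1a3. Over all 12152 genes tested, 0 passed (0.0%) at an adjusted p under 0.05, and 234 (1.93%) had an unadjusted p under 0.05, a mark that 0 of the 10 reached. By the methods' t-test 0 genes passed after adjustment and 335 before it. Kit, Cd14, Itga2, Aldh1a3, Cyp24a1, Wfdc18 and, by less than 0.01, Tspan8 had log2 differences above 0, and Kitl, Itgb3 and Mfge8 had differences below 0, which turned above 0 after median scaling (all 3) and after quantile normalization (Kitl and Itgb3). The median of the 10 differences was 0.105 on the log2 scale, beside -0.02 over all genes tested, of which 44.6% were above 0. By probe set, 12 of the 20 tested differences were above 0, beside 43.2% of all probe sets tested, and 0 of the 20 had an unadjusted p under 0.05, beside 1.68%. Only Aldh1a3 had all Runx1-null mice above all Runx1-WT mice, 1 of 10 genes, where 5.55% of all genes tested had groups that did not overlap, 2.08% with Runx1-null above and 3.47% with Runx1-null below.

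The libraries differed in other ways that bear on these values. The animal numbers fall into a lower range (Runx1-WT mice 1 and 2, Runx1-null mice 1 and 2) and an upper range (Runx1-WT mouse 3 and Runx1-null mouse 3), with both genotypes in each. Values in the 2 upper-range mice lay wholly above or wholly below those of the other 4 for 20.2% of all genes tested, and the range was used as a block in an alternative fit. The 6 probe sets of Runx1 itself did not separate the genotypes (1422864_at: 4082, 3855 and 2015 in Runx1-WT, 3473, 4820 and 2277 in Runx1-null). The position of these probes along the gene was not analysed here, so they are no check of the labels. The luminal keratin Krt8 read 10459 to 12535 over the 6 arrays. Stromal fibroblast markers summed to 14747 to 16144 in the controls and 5430 to 13727 in Runx1-null mice, without overlap. Endothelial markers summed to 2078 to 2784 and 1436 to 2009, also without overlap. The sort removed cells with CD31, CD45 or TER119. The part of stromal and endothelial cells in the results was not tested. Cd24a and Itgb1 encode the antigens of the sort gate, so their levels are no finding.

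The receptor and its ligand came first. Kit, which encodes c-KIT, had linear intensities of 3396, 2268 and 4839 in Runx1-WT mice 1 to 3 and 3507, 4234 and 4773 in Runx1-null mice 1 to 3 (probe set 1452514_a_at). Runx1-WT mouse 2 was the lowest and Runx1-WT mouse 3 the highest of all 6, so the Runx1-null values lay inside the range of the controls. The mean of the controls was 3501 ± 1289 (SD, n = 3) and that of Runx1-null mice 4171 ± 635.5 (SD, n = 3), a log2 difference of 0.31 (SE 0.27, 95% interval -0.34 to 0.95, exact permutation test, two-sided, p = 0.5). The interval in folds ran from 0.791 to 1.94. Without Runx1-WT mouse 2 the difference was 0.03 and without Runx1-WT mouse 3 it was 0.58 (limma adjusted p = 0.731), so its size depended on single control mice.

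The second Kit probe set, 1415900_a_at, had the same order of mice at the extremes. Its intensities were 426, 231 and 1122 in Runx1-WT mice against 618, 705 and 932 in Runx1-null mice, with a log2 difference of 0.63 (SE 0.55, limma adjusted p = 1.0). In both Kit probe sets the 2 upper-range mice were above the other 4. Within the lower range the Runx1-null mice were higher by 0.47 for 1452514_a_at (SE 0.22, limma adjusted p = 0.382), and within the upper range the pair differed by -0.02. Mast cells also carry c-KIT, and of the mast cell and platelet list Fcer1a and Ms4a2, which encode chains of the IgE receptor that defines mast cells, were below the floor of 19.3 on all 6 arrays. The mast cell proteases read 18.0 to 54.9 (Cpa3), 23.0 to 110 (Cma1) and 54.7 to 121 (Tpsb2), and Hdc, the enzyme that makes histamine, 37.0 to 58.9. These 4 were highest in Runx1-WT mouse 3, the mouse with the highest Kit. The summed list was 1126 in that mouse and 555 to 777 in the others. That sum also holds platelet genes, among them Pf4 at 440 in that mouse and 77.3 to 237 in the others. The part of mast cells in the Kit values was not tested.

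Kitl encodes stem cell factor, the ligand of c-KIT. Its intensities were 3615, 3552 and 2953 in the control mice and 4060, 3629 and 2394 in the Runx1-null mice (1415855_at), with the lowest value of each genotype in its upper-range mouse. The genotypes overlapped, and the log2 difference was -0.03 (SE 0.21, 95% interval -0.53 to 0.46, exact permutation test, two-sided, p = 1.0). The other Kitl probe sets gave -0.10, 0.10 and -0.01. All 4 were lower in both upper-range mice than in any lower-range mouse, by 0.48 to 0.78 on the log2 scale, which is the opposite side from Kit. Kit and Kitl intensities thus ran against each other over the 6 arrays (Pearson r = -0.57, n = 6 arrays, among them the 2 of the upper range), given as a description.

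Genes of the KIT signalling list, which was chosen with earlier results of these data known, had 5 differences above and 10 below 0 of 15 tested, a median of -0.08, and 0 passed. The 2 with the smallest unadjusted p were Mitf, a transcription factor downstream of c-KIT in melanocytes and mast cells, at -0.52 (SE 0.29, limma adjusted p = 1.0), and Stat5b, a signal transducer of cytokine receptors, at 0.20 (SE 0.13, limma adjusted p = 1.0). Mitf read 860, 760 and 828 in Runx1-WT mice against 367, 655 and 762 in Runx1-null mice, where the third Runx1-null mouse fell between the controls. Stat5b read 2069, 1860 and 1963 against 2193, 2407 and 2189. Genotypes did not overlap for 3 of the 15, beside 5.55% of all genes tested, with Stat5b and Ptpn11, a phosphatase that binds activated receptors, higher (0.20 and 0.10) and Grb2, an adaptor of receptor tyrosine kinases, lower (-0.15) in the Runx1-null mice.

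**Figure D1:**
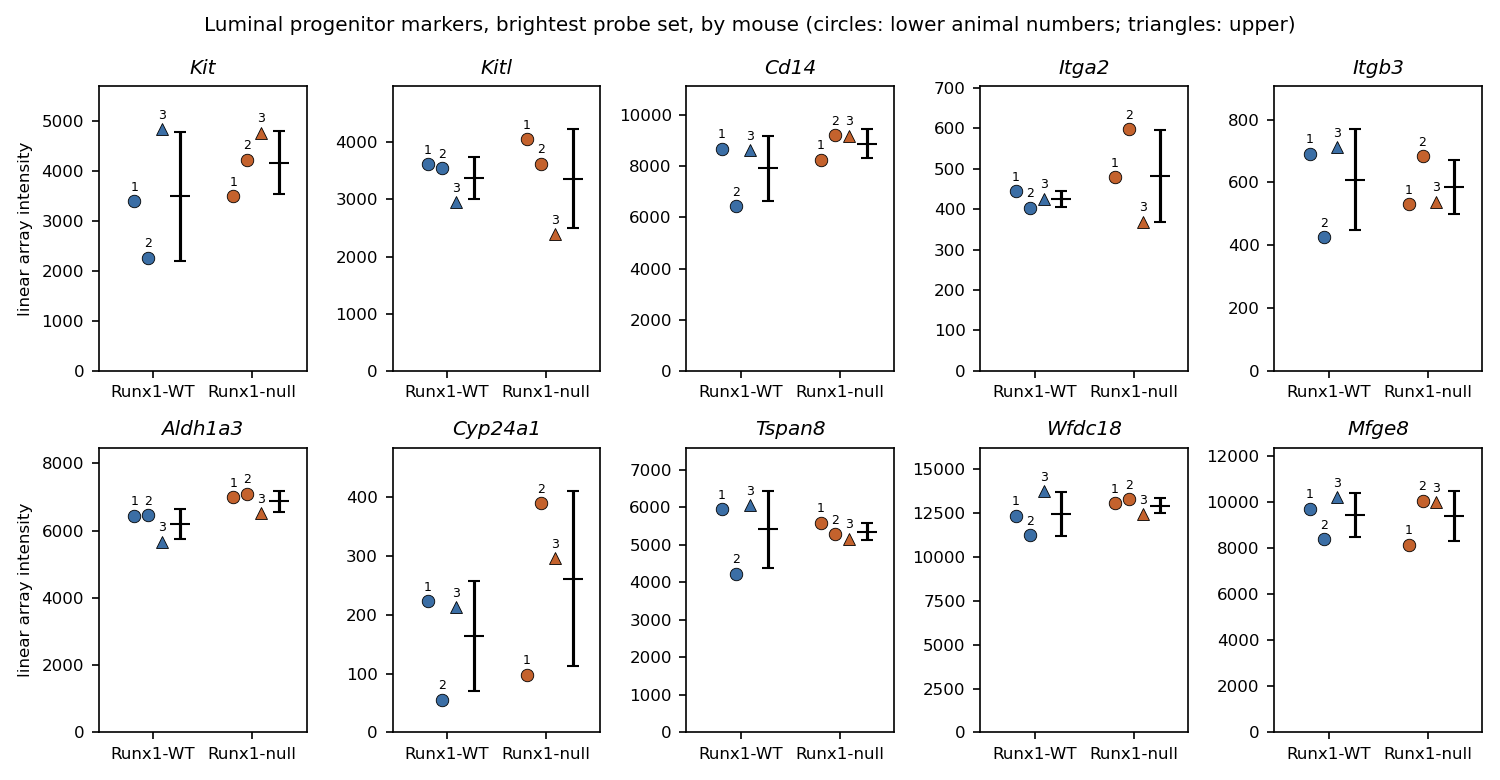
Linear array intensity of the brightest probe set of each of the 10 genes (y axis, from 0) by genotype (x axis), 1 point per mouse with its replicate number, circles for the lower and triangles for the upper range of animal numbers. Horizontal lines with bars give the mean and SD of 3 mice, and only in the Aldh1a3 panel do all Runx1-null mice (6518 to 7096) lie above all Runx1-WT mice (5668 to 6464).

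Among the surface markers, CD14 binds lipopolysaccharide and hands it to the TLR4 complex. Cd14 intensities were 8684, 6438 and 8631 in the control mice and 8258, 9218 and 9201 in the Runx1-null mice (1417268_at). The low value of Runx1-WT mouse 2 stood apart from the other 5, and Runx1-null mouse 1 was below both other controls. The log2 difference was 0.18 (SE 0.12, 95% interval -0.11 to 0.47, exact permutation test, two-sided, p = 0.3), and 0.04 without Runx1-WT mouse 2. Monocytes and macrophages also express Cd14. Summed leukocyte markers were 10075 in Runx1-WT mouse 3 and 2216 to 5009 in the other 5 mice, with Ptprc at 205 and at 18.3 to 47.4. Of that list, Lyz2 (1894, others 269 to 569) and Adgre1 (198, others 35.2 to 119) were highest in that mouse. Csf1r (155, others 194 to 321) was lowest there, and Cd68 (345, others 177 to 449) was neither. Cd14 read 8631 in Runx1-WT mouse 3 and 8684 in Runx1-WT mouse 1. The part of leukocytes in the Cd14 values was not tested.

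Of the CD14 and toll-like receptor list 14 genes were tested, 10 above and 4 below 0 with a median of 0.05, and 0 passed. Tlr4, the signalling receptor, read 1820, 1692 and 887 in Runx1-WT mice against 1784, 1935 and 955 in Runx1-null mice, so the upper-range mice were low in both genotypes and the log2 difference was 0.09 (SE 0.38). Ly96, which encodes the MD-2 subunit that binds lipopolysaccharide with TLR4, had the smallest unadjusted p of the list, with 2025, 2352 and 1396 against 1304, 1682 and 1281 and a difference of -0.41 (SE 0.23, limma adjusted p = 1.0). Nfkbia, an NF-kB inhibitor, was next at 0.12 (SE 0.07, limma adjusted p = 1.0).

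Itga2 encodes the CD49b integrin subunit, which pairs with the beta 1 subunit to bind collagen. It read 444, 404 and 426 in the control mice and 479, 597 and 369 in the Runx1-null mice (1450501_at). Runx1-null mouse 3 was the lowest of all and the other Runx1-null mice were above every control, so the spread was 113.9 (SD) in Runx1-null and 20.3 in Runx1-WT mice. The difference was 0.16 (SE 0.23, 95% interval -0.39 to 0.70, exact permutation test, two-sided, p = 0.6). Its direction changed with the range of animal numbers, at 0.34 in the lower range (limma adjusted p = 0.494) and -0.21 in the single upper-range pair, which has no test.

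Itgb3 encodes CD61, the beta 3 subunit that forms the vitronectin receptor with the alpha v chain. Its brighter probe set, 1455257_at, read 691, 426 and 711 in Runx1-WT mice against 530, 684 and 539 in Runx1-null mice. The Runx1-null values fell between the lowest and the highest control, and the difference was -0.03 (SE 0.26, 95% interval -0.65 to 0.58, exact permutation test, two-sided, p = 0.8). The dim probe set 1421511_at (28.1 to 50.2) was below the filter of 73.5 and was not tested, and its difference of 0.38 had the opposite sign. As for Itga2, the lower range gave a positive and the upper range a negative value, 0.15 and -0.40. Platelets carry both integrin subunits. Gp1bb, a chain of the platelet von Willebrand factor receptor, was below the floor on all arrays. Pf4, a platelet chemokine, was highest in Runx1-WT mouse 3 at 440 against 77.3 to 237 in the others. Ppbp of the same list was also highest there (71.1, others 15.0 to 47.2). Itga2b, the platelet partner of beta 3, was lowest there (161.8, others 162.4 to 260.3), and Gp9 of that list (84.3) was neither. The part of platelets in the Itga2 and Itgb3 values was not tested.

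Partners of these integrins and of MFG-E8 gave 6 differences above and 4 below 0 of 10 tested, with a median of 0.10, and 0 passed. Itgb1 differed by -0.13 (SE 0.14), and Itgav, the alpha v chain, by -0.02 (SE 0.07). Itgb5, another partner of alpha v, differed by 0.15 (SE 0.29). The smallest unadjusted p values were those of Itga2b, the platelet partner of beta 3, at -0.32 (SE 0.26) and Itgb8, a partner of alpha v that binds latent TGF-beta, at 0.52 (SE 0.43), both with a limma adjusted p of 1.0. Tln1, which links integrins to actin, was the 1 gene of the 10 without overlap, higher by 0.18 (SE 0.16) in the Runx1-null mice. Over all genes tested 5.55% had no overlap, 2.08% with Runx1-null above.

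Tspan8 encodes a tetraspanin, a membrane protein that gathers integrins and other proteins into microdomains. It had the most probe sets, 5, and all 5 were lowest in Runx1-WT mouse 2. The brightest, 1420019_at, read 5944, 4233 and 6063 in the control mice and 5595, 5285 and 5162 in the Runx1-null mice. Runx1-null mice lay between the controls and close to each other, with an SD of 223 against 1024 in Runx1-WT. The log2 difference was 0.00 (SE 0.14, 95% interval -0.34 to 0.34, exact permutation test, two-sided, p = 1.0), and the other 4 probe sets gave -0.15 to 0.06. Without Runx1-WT mouse 2 it was -0.17. Of 17 other tetraspanin and WAP-domain genes tested, 6 were above and 11 below 0 with a median of -0.11 and 0 passed. Tspan3 at -0.21 (SE 0.11) and Tspan15 at 0.41 (SE 0.34) had the smallest unadjusted p, with a limma adjusted p of 1.0 for both. Cd151 was the 1 gene of the 17 without overlap, at 0.11 (SE 0.10), beside 5.55% of all genes tested.

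**Figure D2:**
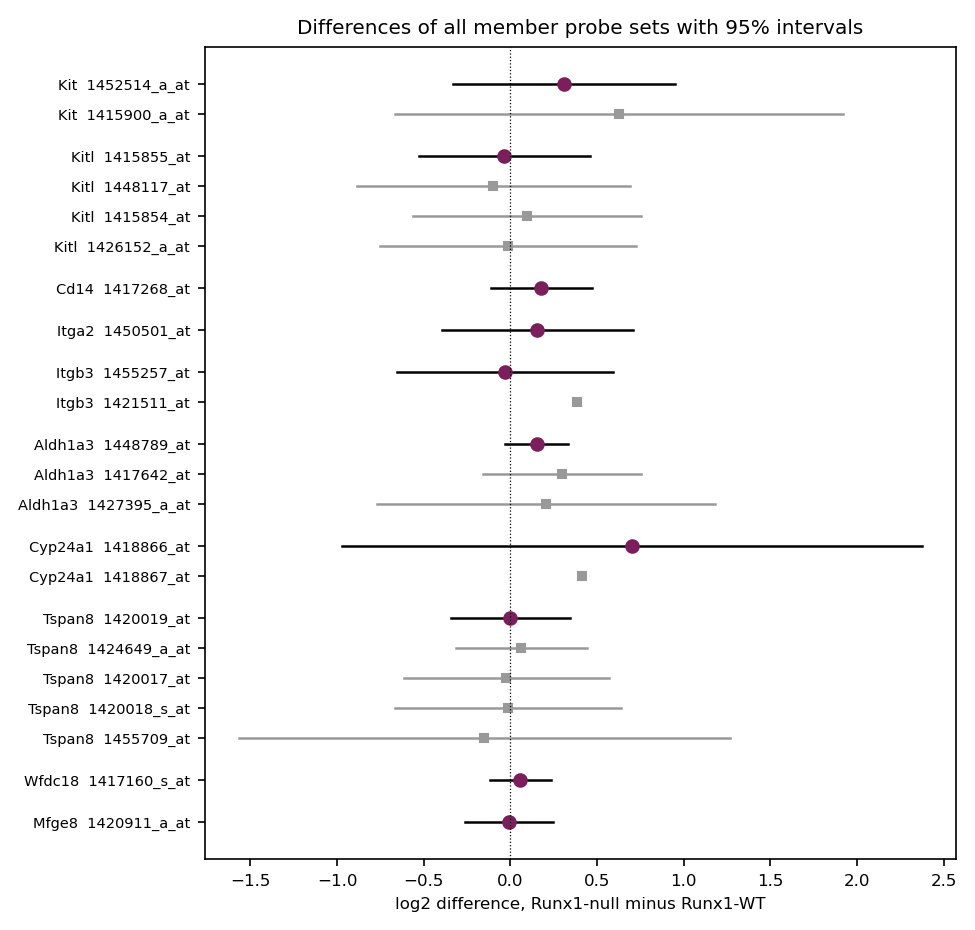
Log2 difference, Runx1-null minus Runx1-WT (x axis), of all 22 probe sets (y axis), with circles for the brightest probe set of a gene and squares for the others. Lines are 95% intervals of the limma fits with 3 mice in each group and are missing for the 2 probe sets below the filter, and every interval shown spans 0.

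The enzymes were Aldh1a3 and Cyp24a1. ALDH1A3 oxidises retinaldehyde to retinoic acid. Aldh1a3 read 6439, 6464 and 5668 in Runx1-WT mice against 6991, 7096 and 6518 in Runx1-null mice (1448789_at), so the lowest Runx1-null value was just above the highest control. Means were 6190 ± 453 (SD, n = 3) and 6868 ± 308 (SD, n = 3), and the log2 difference was 0.15 (SE 0.08, 95% interval -0.03 to 0.33, exact permutation test, two-sided, p = 0.1). Groups of 3 mice cannot give a smaller permutation p. That interval is 0.979 to 1.26 in folds. Because the groups did not overlap, its sign had to be positive in both ranges of animal numbers and without any 1 mouse. The difference was 0.13 in the lower range and 0.20 in the upper. With the range as a block its unadjusted p was 0.0355 with a limma adjusted p of 1.0. In that fit 305 of the 12152 genes tested had an unadjusted p under 0.05.

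The other 2 Aldh1a3 probe sets had positive differences too, 0.30 (SE 0.19) for 1417642_at and 0.20 (SE 0.41) for 1427395_a_at, but their genotypes overlapped, so Aldh1a3 1448789_at was the only 1 of the 20 tested probe sets without overlap, where 5.21% of all probe sets tested had none (1.92% with Runx1-null above and 3.29% below). 1417642_at read 2317, 2039 and 1787 in the control mice and 2662, 2974 and 1972 in the Runx1-null mice. 1427395_a_at read 2615, 2170 and 1175 in Runx1-WT mice against 2544, 3120 and 1284 in Runx1-null mice. Both were lower in the 2 upper-range mice than in any other, the last by 1.08 on the log2 scale, a gap that the brightest probe set did not have (-0.15, with overlap).

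The retinoic acid list had 4 differences above and 9 below 0 of 13 tested, a median of -0.11, and 0 passed. Rdh10, which makes retinaldehyde from retinol, read 2846, 3820 and 1977 against 1779, 2704 and 2925 and differed by -0.20 (SE 0.29). Aldh1a1, a related dehydrogenase, was dim at 39.3 to 98.5, with a difference of -0.38 (SE 0.43), and Aldh1a2 (13.1 to 25.7) was below the filter. Rara, a retinoic acid receptor, and Dhrs3, which turns retinaldehyde back into retinol, had the smallest unadjusted p at -0.31 (SE 0.25) and -0.40 (SE 0.33), both with a limma adjusted p of 1.0.

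Cyp24a1 encodes the vitamin D 24-hydroxylase, which inactivates the hormone and is itself a target of the vitamin D receptor. It varied most between mice of the 10 genes, with 223, 55.9 and 213 in the control mice and 98.2, 390 and 296 in the Runx1-null mice (1418866_at), the highest 6.98 times the lowest. One mouse of each genotype was low and the groups overlapped. The log2 difference was 0.70 (SE 0.71, 95% interval -0.99 to 2.39, exact permutation test, two-sided, p = 0.5), a range of 0.504 to 5.23 in folds, and it went from 0.05 without Runx1-WT mouse 2 to 1.30 without Runx1-null mouse 1. The dim probe set 1418867_at (45.4 to 104) was below the filter, and its difference was 0.41.

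Of the vitamin D list only 4 genes passed the filter, all 4 above 0 with a median of 0.13, and 0 passed the test. Vdr, the receptor, read 4414, 1956 and 4714 in Runx1-WT mice against 3810, 3599 and 3231 in Runx1-null mice, with Runx1-WT mouse 2 lowest, as for Cyp24a1, and differed by 0.04 (SE 0.33). Trpv6, a calcium channel that vitamin D induces in gut, read 56.0, 65.4 and 121 against 158, 143 and 114 and differed by 0.85 (SE 0.38, limma adjusted p = 1.0), and Pdia3 was next by unadjusted p at 0.10 (SE 0.08). Cyp27b1, which makes active vitamin D, was below the filter at 10.9 to 46.9.

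The secreted products were Wfdc18 and Mfge8. Wfdc18 encodes a small protein with the 4-disulfide core of whey acidic protein, and the s_at ending of its only probe set, 1417160_s_at, marks probes that can match more than 1 transcript. It read 12364, 11245 and 13768 in the control mice and 13070, 13288 and 12442 in the Runx1-null mice. Runx1-null values lay inside the range of the controls, and the difference was 0.06 (SE 0.07, 95% interval -0.12 to 0.23, exact permutation test, two-sided, p = 0.6). In the lower range both Runx1-null mice exceeded both controls, by 0.16 (unadjusted p = 0.0498, limma adjusted p = 0.325). In that fit 1866 of the 12152 genes tested had an unadjusted p under 0.05. In the upper range the log2 difference was -0.15.

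Mfge8 encodes a secreted glycoprotein of the milk fat globule that bridges phosphatidylserine on dying cells to alpha v integrins. It read 9731, 8400 and 10222 in Runx1-WT mice against 8159, 10068 and 10004 in Runx1-null mice (1420911_a_at). Each genotype had 1 low mouse. The difference was -0.01 (SE 0.11, 95% interval -0.26 to 0.25, exact permutation test, two-sided, p = 0.9), and the interval in folds was 0.834 to 1.19, among the narrowest of the 10 with those of Aldh1a3 and Wfdc18.

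Mice of the same genotype also differed from each other. Runx1-WT mouse 2 was the lowest mouse for 6 of the 10 genes (Kit, Cd14, Itgb3, Cyp24a1, Tspan8 and Wfdc18), beside 25.1% of all genes tested. By probe set it was the lowest for 11 of the 20 tested, beside 23.2% of all probe sets tested. Those 11 include every probe set of Tspan8, so they are not separate genes. Leaving it out lowered the median of the 10 differences from 0.105 to 0.02, and that of all genes tested from -0.022 to -0.063. Of the 45 pairs of these genes 33 correlated above 0 across the 6 arrays and 21 above r = 0.5, led by Cd14 with Cyp24a1 (r = 0.92) and Kit with Cd14 (r = 0.90), while Kitl with Mfge8 was lowest (r = -0.60). These correlations rest on the same 6 arrays, with Runx1-WT mouse 2 among them, and are given as a description. The same shares over pairs of other genes were not computed. Over all tested genes outside the 10, Kit was most like Ltbp1 (r = 0.996), Gpat4 (r = 0.995) and Akna (r = 0.994), and Cd14 most like Ptges (r = 0.982), Azi2 and Sec22b (r = 0.978 for both). Among 12142 genes compared, 263 reached r = 0.9 with Kit and 109 with Cd14 over n = 6 arrays.

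**Figure D3:**
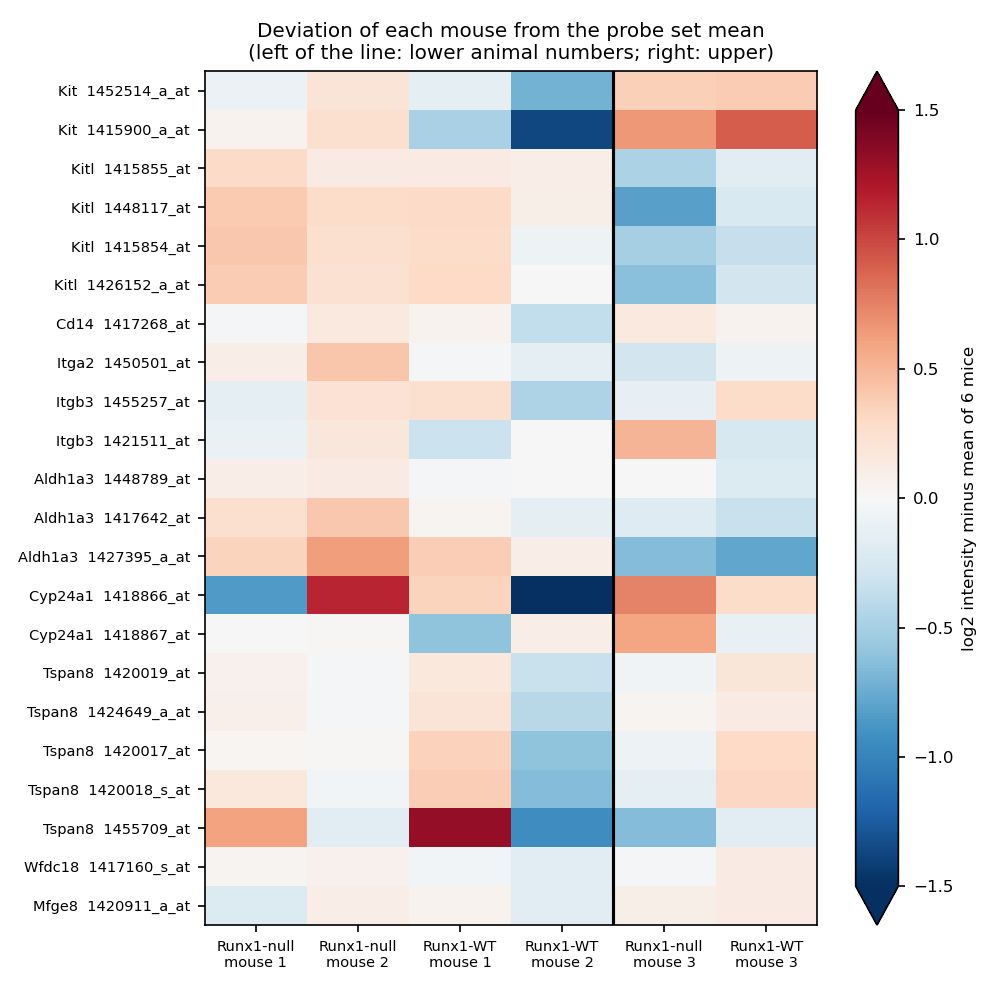
Log2 intensity of each of the 22 probe sets (rows) in each mouse (columns, lower range of animal numbers left of the black line and upper range right of it) minus its mean over 6 mice, in colour with limits of -1.5 and 1.5. Both Kit rows are red and all 4 Kitl rows blue in the 2 right-hand columns, and Runx1-WT mouse 2 holds the lowest value in 11 rows.

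The upper range of animal numbers split 2 of the 10 genes without overlap, Kit higher and Kitl lower, beside 20.2% of all genes tested (10.2% higher, the rest lower). By probe set it split 8 of the 20 tested (2 of Kit, 4 of Kitl and 2 of Aldh1a3), beside 24.4% of all probe sets tested, with 6 lower (14.8%) and 2 higher (9.6%). Within the lower range all 10 differences between genotypes were above 0 (median 0.16, beside 0.01 over all genes tested), and within the upper range 3 were (median -0.09, beside -0.09 over all genes tested). The upper-range pair is 1 mouse of each genotype and allows no test. The log2 gap between the 3' and the 5' Gapdh controls, which grows as RNA is degraded or amplified from its end, was largest in Runx1-null mouse 3 (0.61, others 0.46 to 0.55), as was that of Actb (0.74, others 0.44 to 0.52), and this array had the most values below the floor (22.3%). Their part in the upper-range values was not tested.

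**Figure D4:**
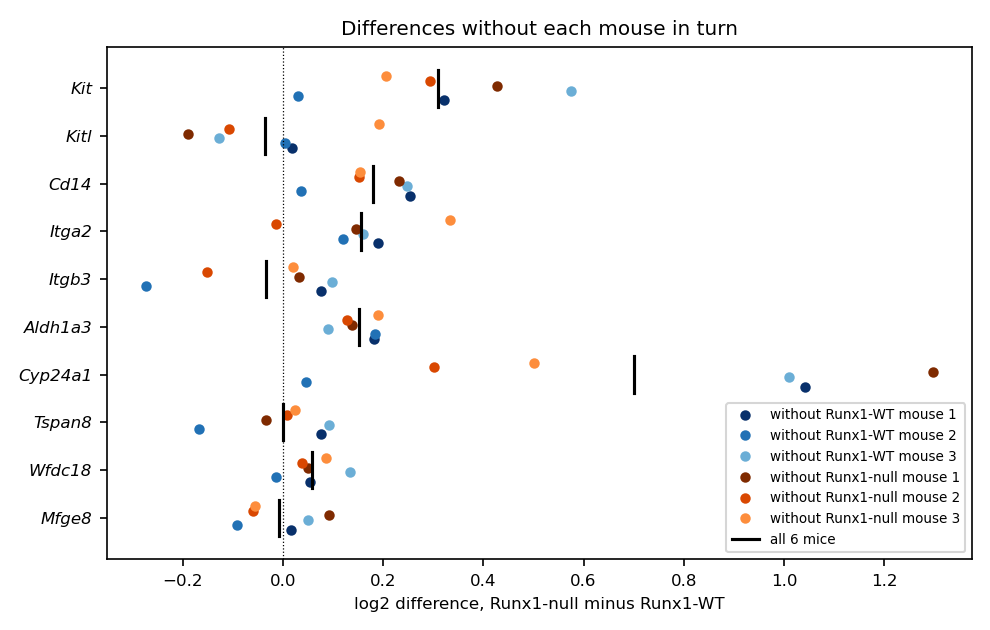
Log2 difference, Runx1-null minus Runx1-WT (x axis), of each of the 10 genes (y axis) with all 6 mice (black line) and with each mouse left out in turn (coloured points). Kit, Cd14 and Cyp24a1 come close to 0 without Runx1-WT mouse 2 (0.03, 0.04 and 0.05), and Kit, Cd14, Aldh1a3 and Cyp24a1 stay above 0 in all 6 cases. For Aldh1a3 this follows from its groups not overlapping.

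The other LP genes did not pass the test either. Of 12 tested, 8 were above and 4 below 0 with a median of 0.05, and 0 passed. Genotypes did not overlap for 0 of them, beside 5.55% of all genes tested. Lif, a cytokine of the interleukin-6 family, and Lcn2, which encodes the iron-carrier-binding lipocalin 2, had the smallest unadjusted p. Lif read 3943, 3168 and 3225 in the control mice and 3560, 4679 and 5999 in the Runx1-null mice and differed by 0.44 (SE 0.20, limma adjusted p = 1.0). Lcn2 differed by 0.11 (SE 0.07, limma adjusted p = 1.0).

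Markers of MLs gave 4 differences above and 8 below 0 of 12 tested with a median of -0.18, and 0 passed. Cited1, a co-factor of the estrogen receptor, at -1.17 (SE 0.40), Wnt4, a progesterone target, at -0.93 (SE 0.32), and Foxa1, a pioneer factor of the estrogen receptor, at -0.31 (SE 0.13) had an unadjusted p under 0.05, 3 of 12 beside 1.93% of all genes tested, each with a limma adjusted p of 1.0. Wnt4 alone of the 12 had genotypes without overlap, beside 5.55% of all genes tested. Esr1, which encodes the estrogen receptor, read 6067, 6271 and 3055 in Runx1-WT mice against 3593, 4345 and 5399 in Runx1-null mice, lowest in Runx1-WT mouse 3, and the genotypes overlapped. The summed markers of MLs were 46944 to 65255 in the controls and 40668 to 57659 in the Runx1-null mice, also with overlap. Luminal keratin and epithelial genes were 6 above and 2 below 0 of 8 tested (median 0.05). Basal and myoepithelial genes were 6 above and 4 below of 10 (median 0.21), with Krt14, a basal keratin, between 787 and 2845. Stromal fibroblast genes were all 11 below 0 (median -0.44), with Col1a1 at 709 in Runx1-null mouse 3 and 1984 to 2896 in the others. Endothelial genes were 1 above and 8 below of 9 (median -0.48), with Pecam1 at 82.1 to 136. Leukocyte genes were 3 above and 8 below of 11 (median -0.21), mast cell and platelet genes 1 above and 3 below of 4 (median -0.20), and adipocyte genes all 3 below (median -0.36). Of the adipocyte genes Adipoq was below the filter at 15.0 to 46.6, Fabp4 read 1913 to 3395, and Lpl read 422 to 1070 with a difference of -0.82 and genotypes without overlap. Lpl, Sparc of the basal list, Postn of the stromal list and Tek of the endothelial list had an unadjusted p under 0.05, all lower in the Runx1-null mice. That was 1 gene of each list, beside 1.93% of all genes tested. Genotypes did not overlap for these genes and for Kdr of the endothelial list (353, 213 and 170 against 129, 152 and 150). That was 1 of 10 basal, 1 of 11 stromal, 2 of 9 endothelial and 1 of 3 adipocyte genes, all lower in the Runx1-null mice. Over all genes tested the share was 5.55%, with 3.47% lower. None of these lists held a gene with an adjusted p under 0.05 by limma.

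A search of promoters for the letters bound by RUNX proteins covered the 6 genes with a listed window (Kit, Kitl, Itga2, Tspan8, Wfdc18 and Mfge8). The windows ran from 250 bases before to 50 after each start in RefSeq on GRCm38.p6, and TGTGGT and TGCGGT, which differ from each other in 1 letter, were searched on both strands. Of the 6 genes 1 (16.7%) held a match, beside 22.5% of the first windows of all 27025 genes and 20.8% of those of tested genes. The match was in Mfge8, at -76 from the start. Its 250 bases before the start (chr7:79149061-79149310, minus strand) are printed with the match in capitals, beside those of Kit (chr5:75574737-75574986, plus strand), which held none, because Mfge8 and Kit mark the 2 outcomes of the search.
Mfge8: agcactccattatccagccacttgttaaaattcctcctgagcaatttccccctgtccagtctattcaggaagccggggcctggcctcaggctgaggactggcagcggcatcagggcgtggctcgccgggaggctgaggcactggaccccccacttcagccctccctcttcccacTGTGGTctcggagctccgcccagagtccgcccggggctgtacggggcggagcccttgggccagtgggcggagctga
Kit: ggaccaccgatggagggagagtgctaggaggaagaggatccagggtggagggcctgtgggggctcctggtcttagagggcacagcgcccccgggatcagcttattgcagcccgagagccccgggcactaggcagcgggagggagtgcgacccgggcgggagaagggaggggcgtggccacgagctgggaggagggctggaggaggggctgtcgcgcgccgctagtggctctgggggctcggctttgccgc
Neither gene passed the limma test, and a match of 6 letters is a description of the sequence and not of binding.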

How the data were processed

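Luminal MECs of 3 Runx1-WT and 3 Runx1-null mice were profiled, 1 array per mouse, grouped by the genotype in the labels. The authors amplified RNA with NuGEN Ovation V2 and used dChip for normalization, and the values they deposited are linear intensities on that scale, where the dChip version and model are not given in the sources used here. Precision is limited by the number of arrays. Of 45101 probe sets, 34958 had 1 gene symbol, 932 several and 9211 none in the table used here.

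Intensities under a floor of 19.335 (the 20th percentile over all arrays) were raised to it and log2 was taken. The brightest probe set stood for its gene. Genes whose mean reached 73.475, the 40th percentile, numbered 12152 and entered a limma 3.58.1 fit in R 4.3.3, with a variance trend and Benjamini-Hochberg adjustment at 0.05. All 10 genes and 20 of their 22 probe sets passed that filter. Probe sets were fitted separately (22709 tested, 0 called, 382 at an unadjusted p under 0.05). The code was tested on simulated data. The methods describe littermates, but litters are not in the labels. The main fit therefore treats the mice as independent, and shared litters were not modelled.

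The genes and lists were chosen with earlier results of these data known. Besides the 10 genes, the text names direct partners, defining cell markers, the 2 genes of each pathway list with the smallest unadjusted p, and the 3 genes most like Kit and Cd14. Other list genes (those without overlap or with an unadjusted p under 0.05, and the other mast cell genes) were named after their values were seen. So were Lyz2, Adgre1, Csf1r, Cd68, Gp1bb, Ppbp, Gp9, Fabp4, Tnfsf11 and Elf5. Alternatives were other filters, normalizations, a pseudocount of 5.04, leaving out each mouse, the animal number range as a block or alone, no variance trend, array weights, the mean over probe sets and the methods' t-test. Protein sequences were not used here.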

Additional observations from a re-analysis of the deposited data

How the results depend on the processing

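Under every alternative with a test, 0 genes had an adjusted p under 0.05, also without each mouse in turn (0 to 0). For probe sets the filters, normalizations, block and fits without 1 mouse were run, and 0 passed in each (0 to 0 without 1 mouse). The number of genes at an unadjusted p under 0.05 (234) was 78 to 818 without 1 mouse, 535 without the filter, 123 after median scaling, 1866 in the lower range of animal numbers alone and 1752 with array weights, and that of probe sets (382) was 115 to 1319 without 1 mouse, 929 without the filter and 211 after median scaling. Array weights put 10.4 on Runx1-null mouse 2 and 0.356 to 1.49 on the others. With them 4 of the 10 genes (Wfdc18, Aldh1a3, Itga2 and Kit) had an unadjusted p under 0.05, beside 1752 of the 12152 genes tested. The smallest limma adjusted p of these 4 was 0.276.

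The median of the 10 differences (0.105) was 0.018 to 0.171 without 1 mouse, lowest without Runx1-WT mouse 2, where that of all genes was -0.063. It was -0.089 in the upper range alone, which holds 2 mice, beside -0.092 for all genes. The block of animal number range could not move a difference, because each range holds as many Runx1-WT as Runx1-null mice. It could change only SEs and p-values. Median scaling moved the median of all genes by 0.091 and put all 10 genes above 0. In the upper range alone Kit was -0.02, Itga2 -0.206, Wfdc18 -0.146 and Tspan8 -0.232, all below 0. Among the other alternatives, Kitl became 0.008 after quantile normalization, 0.056 after median scaling, 0.099 in the lower range and 0.045 with array weights. Itgb3 became 0.017, 0.058, 0.151 and 0.149 under the same 4 and 0.176 as the mean over probe sets. Tspan8 became -0.029 with array weights and -0.025 as the mean over probe sets, and Mfge8 became 0.083 after median scaling, 0.004 in the lower range and 0.083 with array weights. Without 1 mouse the values spanned -0.189 to 0.192 for Kitl, -0.013 to 0.334 for Itga2, -0.273 to 0.097 for Itgb3, -0.168 to 0.091 for Tspan8, -0.013 to 0.133 for Wfdc18 and -0.091 to 0.092 for Mfge8. The cause was not tested. Kit, Cd14, Aldh1a3 and Cyp24a1 kept their sign without any 1 mouse, which for Aldh1a3 follows from its groups not overlapping. Cyp24a1 was below the stricter filter. No paired analysis was possible because the labels give no litters. They give no replicate numbers either, and those used here only name the mice. With 3 mice a group, the median SE of the 10 differences was 0.18 on the log2 scale.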

Other observations

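Runx1-WT mouse 3, which had the highest Kit value, also stood apart for Tnfsf11, which encodes RANKL, a cytokine that progesterone induces in MLs. Tnfsf11 read 9.67, 6.87 and 4980 in the control mice and 338, 134 and 28.8 in the Runx1-null mice, so both other controls were below the floor of 19.3. This gene was singled out after its values were seen. Elf5, the transcription factor of alveolar LPs, read 2691, 1119 and 3640 in Runx1-WT mice against 2785, 3126 and 3409 in Runx1-null mice, with Runx1-WT mouse 2 lowest and Runx1-WT mouse 3 highest as for Kit, and its log2 difference was 0.48 (SE 0.41, limma adjusted p = 1.0).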
